A study of Mus musculus with 9 samples.

Results

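Immediate early genes are the first genes a cell transcribes after a stimulus. The 10 described here are *Fos*, *Fosb*, *Jun*, *Junb*, *Egr1*, *Egr2*, *Atf3*, *Ier2*, *Dusp1* and *Nr4a1*. They were chosen by name, to be compared library by library, because RNA of this kind can change during the handling of tissue at collection as well as with the state of the tissue in the animal. All 10 were among the 27179 genes of the count table, and all 10 were among the 16329 that passed the filter on low counts. Poly(A) RNA of whole mandibles with their teeth was sequenced from C57BL/6 mice aged 6 months, of which 5 were WT and 4 carried the label *FcγRIIB*-/- (described as males in the methods). The label stands for a deletion, in all cells, of the inhibitory Fc gamma receptor IIB, which gives mice a disease resembling lupus, and the study asked which genes accompany the bone loss of the mandible in these mice. Isoflurane anesthesia and cervical dislocation preceded the removal of the bone, which was pulverized in liquid nitrogen. The time from death to this step, any storage before it and the order of collection are not given in the sources used here. Each library was 1 mouse.

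The signal for these genes is carried by kinases. ERK and related kinases phosphorylate factors that are already bound to DNA, among them SRF with its ELK partners at the CArG box (also called the serum response element) and CREB at the cAMP response element (CRE), so that transcription starts within minutes and without new protein. The proteins made are mostly transcription factors that pass the signal on, or brakes on it, and the RNAs are short-lived. In bone and teeth, mechanical load, parathyroid hormone and inflammatory cytokines are known triggers, and dissection itself is another.

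The upstream DNA of 5 members is shown because these are the members that followed the rest of the group most closely (*Fos*, *Dusp1* and *Atf3*) and least closely (*Jun* and *Egr2*) among those with an entry in the promoter table. Each line gives the 150 bases before a transcription start of RefSeq on GRCm38.p6, read 5′ to 3′ on the strand of the gene, and capitals mark TGACG on either strand (the core of a CRE), the whole CRE (TGACGTCA, which contains that core) and the CArG box. *Fos* is at chr12:85473740-85473889 on the plus strand, *Dusp1* at chr17:26508473-26508622, *Atf3* at chr1:191183334-191183483 and *Jun* at chr4:95052223-95052372 on the minus strand, and the window of *Egr2*, 1 of 5 starts listed, is at chr10:67537719-67537868 on the plus strand.
Fos: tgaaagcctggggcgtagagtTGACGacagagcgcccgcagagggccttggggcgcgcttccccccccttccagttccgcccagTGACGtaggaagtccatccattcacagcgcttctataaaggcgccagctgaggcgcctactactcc
Dusp1: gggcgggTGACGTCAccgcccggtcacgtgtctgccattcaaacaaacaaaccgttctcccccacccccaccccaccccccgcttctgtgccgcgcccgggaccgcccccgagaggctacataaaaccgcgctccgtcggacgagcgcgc
Atf3: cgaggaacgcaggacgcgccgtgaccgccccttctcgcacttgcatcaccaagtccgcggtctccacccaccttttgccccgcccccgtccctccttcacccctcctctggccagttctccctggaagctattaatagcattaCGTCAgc
Jun: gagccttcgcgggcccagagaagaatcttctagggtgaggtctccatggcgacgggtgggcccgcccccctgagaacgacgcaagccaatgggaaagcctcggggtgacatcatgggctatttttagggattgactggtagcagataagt
Egr2: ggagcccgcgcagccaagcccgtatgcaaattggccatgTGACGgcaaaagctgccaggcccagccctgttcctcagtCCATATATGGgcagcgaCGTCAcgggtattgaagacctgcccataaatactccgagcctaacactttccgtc

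The search covered 250 bases before and 50 after each start on both strands, for the 8 members with an entry, which were all but *Egr1* and *Ier2*. TGACG, a motif added after the data had been seen, was present in 7 of the 8, *Jun* being the exception. It was present in 23% of the 27025 genes in the table. A gene counted if any of its starts had the motif, and not every one of the 5 windows of *Egr2* had TGACG. Its relation to how closely a member followed the others was not tested. The complete CRE was present in *Dusp1* alone, at 143 to 136 bases before the start, against 2.03% of genes. A CArG box was present in *Egr2* alone, at 72 to 63 bases before the start shown, against 1.81%. *Egr2* was searched at 5 starts and each other member at 1. Sites further from the start were not searched, so a motif missing here may lie outside the window. GGGCGG, the GC box, was found in 7 members (38.2% of genes), TATAAA in *Fos* and *Junb* (15.7%), and the EGR motif, GCGGGGGCG or GCGTGGGCG and here overlapping a GC box, in *Fosb* and *Nr4a1* (3.93%). Neither the AP-1 site, TGACTCA or TGAGTCA (5.95% of genes), nor AAAGGTCA, the motif of the NR4A receptors (1.7%), occurred in these windows. These are matches of letters, and binding was not measured.

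Totals lay between 21453880 and 28991631 counts per library. The targeted gene was examined first. *Fcgr2b* had 17.0 to 38.3 CPM in WT, with a median of 20.9, and 26.0 to 32.1 CPM in the libraries labelled *FcγRIIB*-/-, where CPM is the count scaled to the library size after TMM normalization. The log2 fold change was 0.21 (SE 0.20, adjusted p = 0.442), where every adjusted p given here is Benjamini-Hochberg adjusted and, unless named otherwise, from the quasi-likelihood test of edgeR. The RNA of *Fcgr2b* was thus not lower where the label says the gene was deleted. Reads were counted per gene, so a deletion of some exons may leave reads, and these counts cannot show whether the label is right. Directions below are between libraries by their labels. Markers of bone cells and of enamel and dentin summed to 27370 to 43040 and 12170 to 57620 CPM over 9 and 8 genes. Most of the first sum was *Col1a1* alone, at 24640 to 40528 CPM. In bulk tissue, fewer cells of a type and less RNA per cell cannot be told apart.

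By edgeR, 0 of the 10 genes had an adjusted p under 0.05 between the labelled genotypes, although 33.3% of all genes tested did. At an unadjusted p under 0.05 there were 3 (*Egr1*, *Atf3* and *Ier2*), against 44.2% of all genes. DESeq2 called 2 of them as higher (*Atf3* and *Ier2*) and limma-voom called 1 (*Ier2*). The groups overlapped in all 10 genes, whereas 29.6% of all genes did not overlap. Over the 10 genes the log2 fold change had a median of 0.29, with 7 of them above 0, and over all genes tested it had a median of 0.0055. Without replicate 2 of the libraries labelled *FcγRIIB*-/- the median was -0.02, with 5 of the 10 above 0. Libraries also differed within a group. Replicate 2 of the libraries labelled *FcγRIIB*-/- had the highest level of all 9 libraries in 6 of the 10 genes, and WT replicate 1 had it in the other 4. Each library was 1 mouse, so the animal, its handling and the preparation of the library cannot be told apart.

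**Figure D1:**
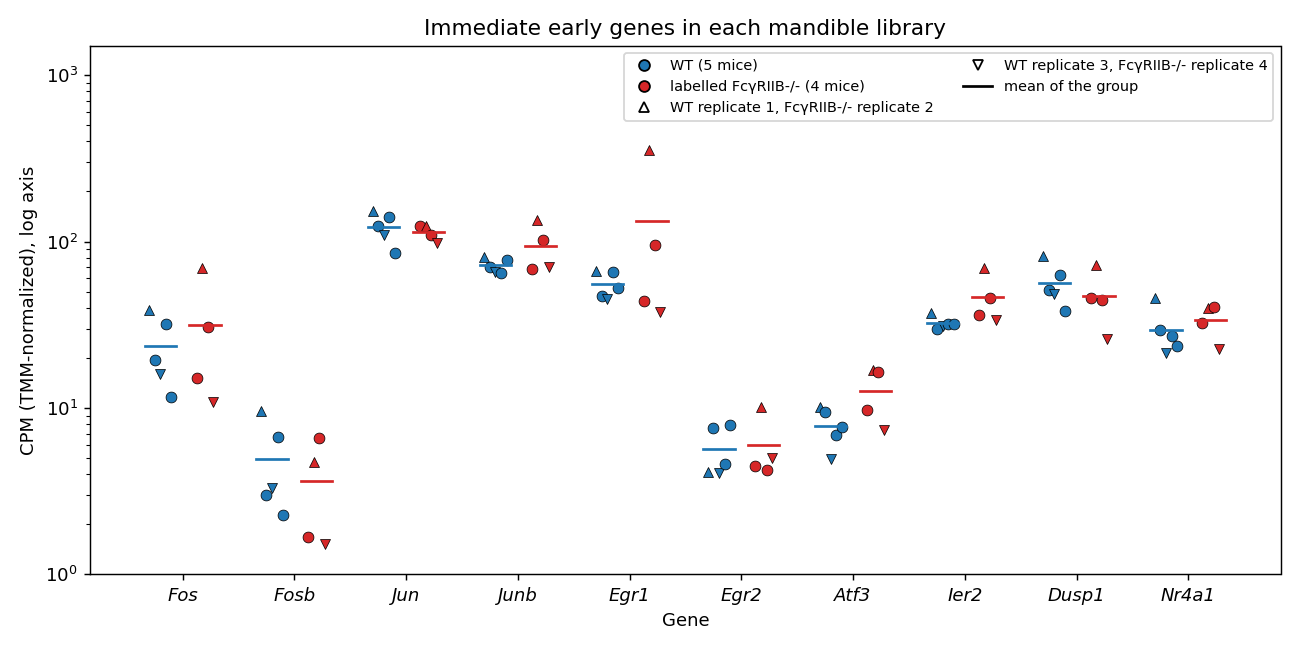
Level of the 10 genes in each of the 9 libraries, in CPM on a log axis, with WT in blue, libraries labelled FcγRIIB-/- in red and a horizontal line at the mean of each group. Upward triangles mark WT replicate 1 and FcγRIIB-/- replicate 2, downward triangles WT replicate 3 and FcγRIIB-/- replicate 4. The groups overlap in every gene, and the highest point of all is Egr1 in FcγRIIB-/- replicate 2, at 356 CPM.

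The first members are subunits of AP-1, a dimer of a FOS and a JUN protein that binds DNA through a basic leucine zipper. *Fos* encodes a FOS subunit that is made after a stimulus. It had 39.0, 19.5, 15.9, 31.8 and 11.7 CPM in WT replicates 1 to 5, and 15.1, 69.3, 30.5 and 10.8 CPM in the libraries labelled *FcγRIIB*-/-, replicates 1 to 4. The order of these replicates is kept for every gene below. The highest and the lowest of the 9 libraries were both labelled *FcγRIIB*-/-, replicates 2 and 4, and they stood 6.39-fold apart, compared with a range of 3.34-fold within WT. The means were 23.6 ± 11.4 (SD, n = 5) and 31.5 ± 26.6 CPM (SD, n = 4), with a log2 fold change of 0.41 (SE 0.51, 95% interval -0.72 to 1.55, adjusted p = 0.564 in edgeR). Without replicate 2 of the libraries labelled *FcγRIIB*-/- it was -0.32 (adjusted p = 0.608).

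*Fosb*, the closest relative of *Fos* here, was at 9.53, 3.01, 3.28, 6.64 and 2.26 CPM in WT and at 1.68, 4.76, 6.57 and 1.52 CPM in the libraries labelled *FcγRIIB*-/-. WT replicate 1 was highest, at 2.51-fold the mean of the other WT libraries. Its libraries labelled *FcγRIIB*-/- fell into a higher pair, replicates 2 and 3, and a lower pair, replicates 1 and 4. It was the least abundant member, with 30 to 263 counts, so that counting error adds to its spread. The log2 fold change was -0.45 (SE 0.52, 95% interval -1.61 to 0.71, adjusted p = 0.540), and with 1 library left out it was between -0.90 (without replicate 3 of the libraries labelled *FcγRIIB*-/-) and -0.05 (without WT replicate 1).

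*Jun* encodes a JUN subunit of AP-1. WT had 153, 124, 110, 140 and 85.9 CPM, and the libraries labelled *FcγRIIB*-/- had 123, 123, 110 and 98.6 CPM. All 4 of the latter lay inside the WT range, and replicate 2, which stood out in most other members, was level with replicate 1. *Jun* also had the smallest spread within groups among the 10, with an SD of 0.27 on the log2 scale. Its log2 fold change was -0.11 (SE 0.15, 95% interval -0.44 to 0.22, adjusted p = 0.610), which bounds any difference between the group means more tightly than for *Fos* or *Fosb*.

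*Junb*, a JUN protein that can restrain the activity of *Jun*, had 80.7, 70.5, 66.0, 64.3 and 77.6 CPM in WT and 68.7, 134, 102 and 70.6 CPM in the libraries labelled *FcγRIIB*-/-. Replicates 2 and 3 of the latter were above all WT libraries, while replicates 1 and 4 lay within the WT range. Between groups *Junb* had a log2 fold change of 0.39 (SE 0.18, 95% interval -0.01 to 0.79, adjusted p = 0.124). The count of *Junb* was also set against that of *Jun* in the same library, a ratio not planned beforehand and read only between libraries. It was 0.458 to 0.904 in WT and 0.557, 1.09, 0.924 and 0.716 in the libraries labelled *FcγRIIB*-/-.

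The zinc finger factors came next. *Egr1* is a target of SRF and a sensitive reporter of ERK activity. Its levels were 66.7, 46.9, 45.2, 65.9 and 52.4 CPM in WT and 44.1, 356, 95.9 and 37.9 CPM in the libraries labelled *FcγRIIB*-/-. A single mouse, replicate 2 of the latter, was 6.00-fold above the mean of the other 3 of its group, replicate 3 was also above every WT library, and replicates 1 and 4 were below every WT library. The group means were 55.4 ± 10.3 (SD, n = 5) and 133 ± 150 CPM (SD, n = 4), so that the SD of the second exceeded its mean. The log2 fold change was 1.27 (SE 0.56, 95% interval 0.03 to 2.50, adjusted p = 0.105). Without replicate 2 it was 0.10 (95% interval -0.53 to 0.73, adjusted p = 0.821), and without replicate 4 it was 1.58 (95% interval 0.42 to 2.73, adjusted p = 0.0478).

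*Egr2*, which is known from myelinating Schwann cells and from the hindbrain as well as from stimulated cells, was at 4.13, 7.58, 4.09, 4.63 and 7.85 CPM in WT and at 4.48, 10.2, 4.24 and 4.97 CPM in the libraries labelled *FcγRIIB*-/-. Replicate 2 of the latter was again highest. In WT, however, the high libraries were replicates 2 and 5, and WT replicate 1 was near the bottom, unlike in the other 9 genes. Its log2 fold change was 0.07 (SE 0.31, 95% interval -0.61 to 0.76, adjusted p = 0.872) and -0.31 (adjusted p = 0.401) without replicate 2 of the libraries labelled *FcγRIIB*-/-. The 7 markers of Schwann cells and nerve summed to 445, 1218, 815, 786 and 963 CPM in WT and 758, 1230, 751 and 848 CPM in the libraries labelled *FcγRIIB*-/-, so that the libraries high in *Egr2* were also the highest of their group in this sum, or the second highest in the case of WT replicate 5. None of the 7 was at 0 counts in any library or passed the test between groups, and their part in the level of *Egr2* was not tested.

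*Atf3* encodes a stress-induced bZIP repressor. WT had 10.1, 9.43, 4.90, 6.83 and 7.65 CPM, and the libraries labelled *FcγRIIB*-/- had 9.67, 17.0, 16.4 and 7.35 CPM. Replicates 2 and 3 of the latter were above all WT libraries. For *Atf3* the log2 fold change was 0.70 (SE 0.27, 95% interval 0.09 to 1.30, adjusted p = 0.0724). It remained positive without replicate 2, at 0.52 (adjusted p = 0.198), and without replicate 4 of the same group it was 0.88 and passed (adjusted p = 0.0283).

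*Ier2*, a small nuclear protein induced by growth factors, was even across WT, at 37.1, 29.9, 31.3, 31.9 and 31.8 CPM. In the libraries labelled *FcγRIIB*-/- it was at 36.0, 69.1, 45.9 and 33.7 CPM. WT replicate 1 was the only WT library above any of these 4, and it exceeded replicates 1 and 4, so that without it the groups of *Ier2* did not overlap. Among the 10 genes *Ier2* came closest to the threshold, with a log2 fold change of 0.51 (SE 0.18, 95% interval 0.11 to 0.92, adjusted p = 0.0533). Without replicate 2 it was 0.25 (adjusted p = 0.119), and without replicate 4 it was 0.64 (adjusted p = 0.0265).

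*Dusp1* is the brake of the group, a nuclear phosphatase that switches off p38, JNK and ERK and that glucocorticoids also induce. It had 81.4, 51.4, 48.7, 62.9 and 38.0 CPM in WT and 45.8, 72.6, 44.7 and 26.0 CPM in the libraries labelled *FcγRIIB*-/-. WT replicate 1 was highest and replicate 4 of the libraries labelled *FcγRIIB*-/- lowest. Its log2 fold change was -0.26 (SE 0.28, 95% interval -0.86 to 0.35, adjusted p = 0.502). It was -0.07 without WT replicate 1 and -0.06 without replicate 4 of the libraries labelled *FcγRIIB*-/-. Relative to *Dusp1* in the same library, the count of *Ier2* was 0.456 to 0.837 in WT and 0.786, 0.952, 1.03 and 1.30 in the libraries labelled *FcγRIIB*-/-, with WT replicate 5 inside the range of the latter. This ratio was formed after the values had been seen and was not tested.

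*Nr4a1* (Nur77) is an orphan nuclear receptor that antigen receptors and growth factors induce. WT had 45.9, 29.5, 21.2, 27.0 and 23.7 CPM, and the libraries labelled *FcγRIIB*-/- had 32.3, 39.8, 40.3 and 22.5 CPM. WT replicate 1 was the highest of all, and 3 of the 4 libraries labelled *FcγRIIB*-/- exceeded the other 4 of WT. A log2 fold change of 0.20 (SE 0.23, 95% interval -0.32 to 0.71, adjusted p = 0.545) resulted. Without WT replicate 1 it was 0.43 (adjusted p = 0.104).

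For the members not given so far without replicate 2 of the libraries labelled *FcγRIIB*-/-, the log2 fold change was then -0.60 for *Fosb*, -0.15 for *Jun*, 0.16 for *Junb*, -0.54 for *Dusp1* and 0.11 for *Nr4a1*, with adjusted p-values between 0.144 (*Dusp1*) and 0.786 (*Nr4a1*).

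**Figure D2:**
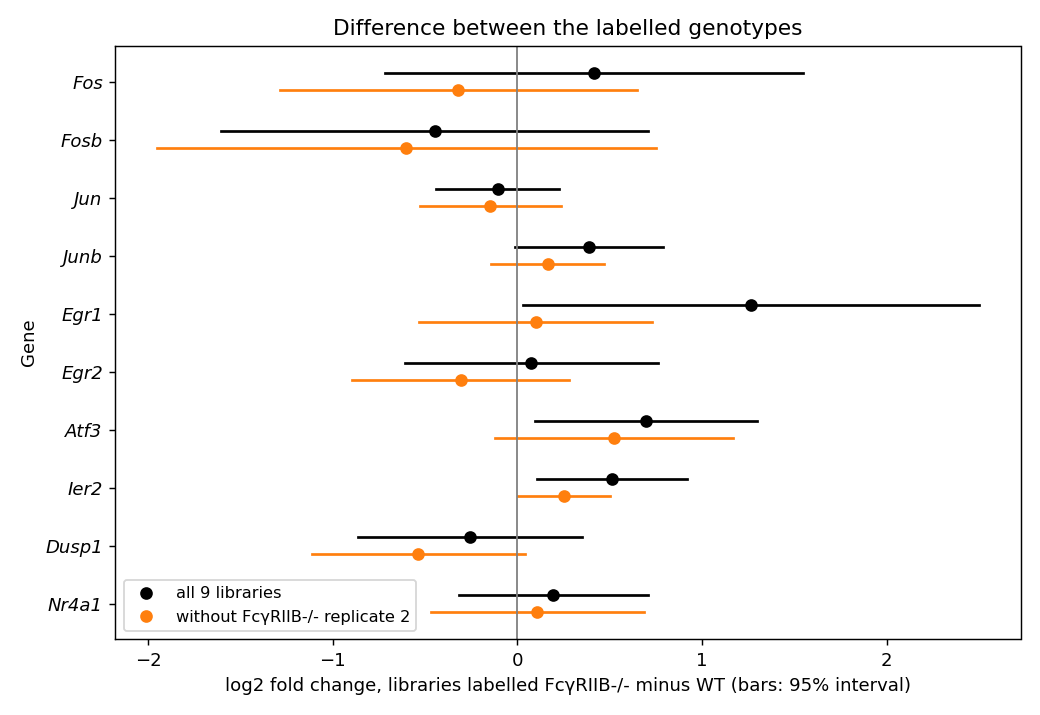
Log2 fold change of the 10 genes between libraries labelled FcγRIIB-/- and WT, with 95% intervals as bars, from edgeR on all 9 libraries (black) and without FcγRIIB-/- replicate 2 (orange). Egr1 moves from 1.27 to 0.10 and Fos from 0.41 to -0.32, whereas Jun moves from -0.11 to -0.15.

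Levels per length of transcript allow the members to be ranked. In CPM per kilobase of exon, WT means were 39.7 ± 3.97 for *Junb* and 38.5 ± 8.24 for *Jun* (SD, n = 5), which did not differ beyond their spread. *Dusp1* at 23.8 ± 6.96 and *Ier2* at 21.3 ± 1.81 came next and were also within their spread of each other. *Egr1* (12.4 ± 2.29), *Fos* (11.2 ± 5.43) and *Nr4a1* (11.0 ± 3.63) formed the next level, and *Atf3* (3.61 ± 0.968), *Egr2* (1.78 ± 0.595) and *Fosb* (1.31 ± 0.811) the lowest. In the libraries labelled *FcγRIIB*-/- *Junb* led again, at 51.9 ± 17.2 (SD, n = 4), and *Fosb* was last, at 0.960 ± 0.650. *Egr1* spanned 8.44 to 79.3 CPM per kilobase over the 9 libraries, and at its highest it exceeded the level of every other member in any library.

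All 10 genes varied more within groups than the median gene. The SD of log2 CPM within groups had a median of 0.50 over the 10 genes and 0.18 over all 16329, and 5 of the 10 were above the 90th percentile of all genes. Of the lists described below, the median was higher for markers of neutrophil precursors (0.94), T cells (0.89) and B cells (0.85). It was also higher for erythroid (0.71) and keratinized epithelial (0.71) markers. In every other list it was lower, and over 36 further immediate early and primary response genes it was 0.26. *Egr1*, *Fos* and *Fosb* were at percentiles 98.9, 98.7 and 98.7, and *Jun*, the steadiest, at 69.1. For 8 of the 10 the SD in WT was the smaller of the pair, compared with 59% of all genes, the other 2 being *Jun* and *Nr4a1*.

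**Figure D3:**
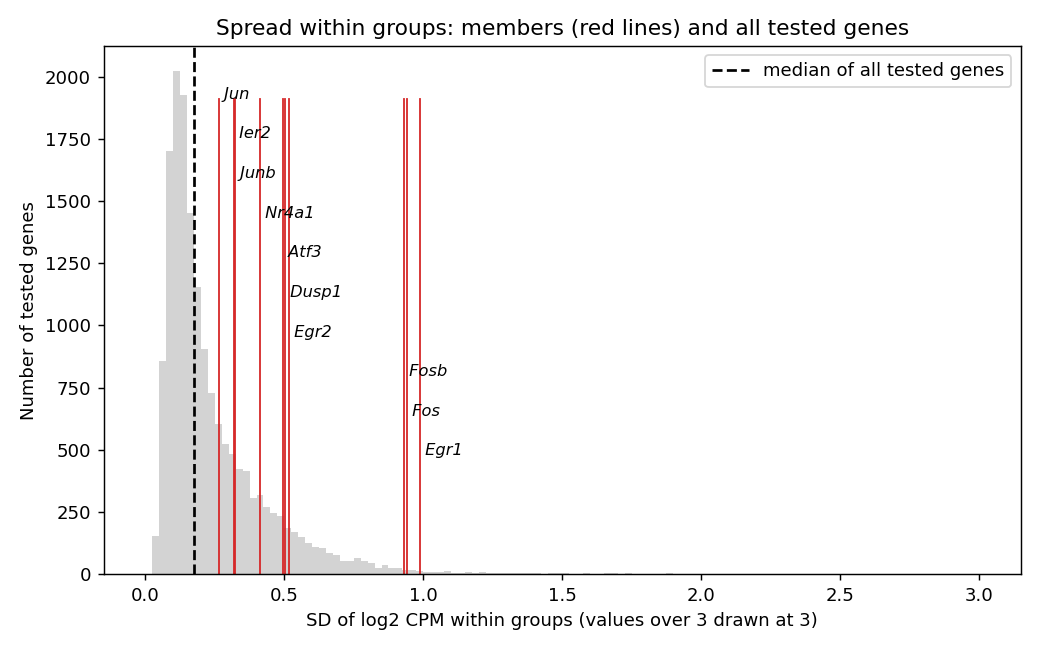
Histogram of the SD of log2 CPM within groups for the 16329 genes tested (grey, number of genes), with the 10 immediate early genes as red lines and the median of all genes dashed. All red lines lie to the right of the dashed line, and Fosb, Fos and Egr1 lie far out in the tail.

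The variation was shared by most members, library by library. In replicate 2 of the libraries labelled *FcγRIIB*-/- all 10 genes were above the mean of their group, with a median deviation of 0.64 on the log2 scale. In replicate 4 all 10 were below it, with a median deviation of -0.62, and in WT replicate 3 all 10 were below it as well, with a median of -0.32. WT replicate 1 was above the WT mean in 9 of 10, with a median of 0.38. Over all genes tested, the median size of the deviation in these libraries was 0.10, 0.15, 0.10 and 0.08. The 10 genes together summed to 528, 392, 351, 442 and 339 CPM in WT and 381, 896, 497 and 314 CPM in the libraries labelled *FcγRIIB*-/-.

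Rank within a group showed the same. Replicate 2 was the highest of the 4 libraries labelled *FcγRIIB*-/- in 7 of the 10 genes and in 19.6% of all genes. Replicate 4 was the lowest of them in 8 of 10 and in 29.6% of all genes. WT replicate 1 was the highest of WT in 9 of 10 and in 14.4% of all genes. The library size of these 3 was 21911165, 21453880 and 26787359 counts, the second lowest and the lowest of their group and the highest of WT.

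**Figure D4:**
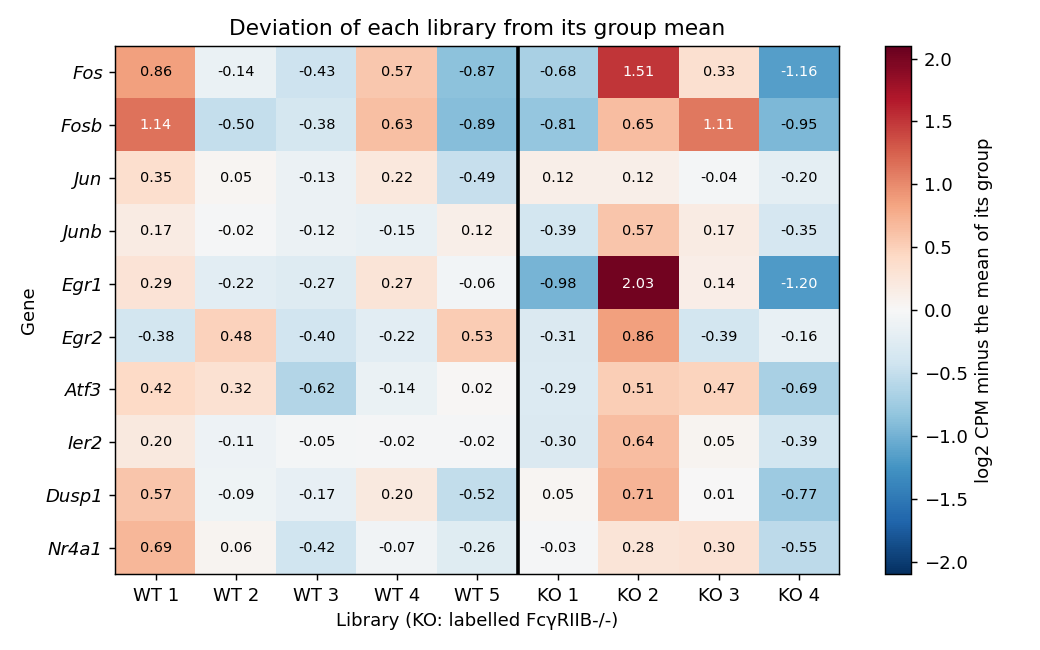
Deviation of each library (columns, KO standing for libraries labelled FcγRIIB-/-) from the mean of its group for each gene (rows), in log2 CPM, red above and blue below the mean. The column of KO 2 is positive throughout, up to 2.03 for Egr1, and the columns of WT 3 and KO 4 are negative throughout.

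With the group means removed, the 45 pairs of members had a median Pearson correlation of 0.68 over the 9 libraries, from -0.26 to 0.98, with 43 pairs above 0. The median of Spearman's rho was 0.72. Closest were *Egr1* and *Ier2* (r = 0.98), *Junb* and *Ier2* (0.94), and *Fos* and *Dusp1* (0.93). These values describe 9 points that share their libraries, and replicates 2 and 4 of the libraries labelled *FcγRIIB*-/- weigh heavily on them. Without both, the median over the 7 libraries left was 0.57, with 37 pairs above 0. Against the mean of the other 9 genes, *Fos* came closest (r = 0.95), followed by *Ier2* (0.90), *Egr1* (0.88) and *Dusp1* (0.88). *Jun* (0.50) and *Egr2* (0.25) were the least alike. Without replicate 2 of the libraries labelled *FcγRIIB*-/-, *Egr2* ran against *Egr1* (r = -0.31), having been at 0.56 with it.

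The ratio between members was not constant where the level was high. *Egr1* relative to *Fosb*, in counts of the same library, was 7.0, 15.6, 13.8, 9.91 and 23.1 in WT and 26.2, 74.7, 14.6 and 24.9 in the libraries labelled *FcγRIIB*-/-. WT replicate 1 therefore had the lowest value of all 9 and replicate 2 of the libraries labelled *FcγRIIB*-/- the highest, although both were the high libraries of their groups. The ratios in this paragraph were not planned beforehand and were not tested. *Fosb* and *Egr1* were the members raised most in these libraries, respectively, so the choice of this pair favours such extremes. *Fos* relative to *Fosb* ranged from 4.10 to 6.47 in WT and was 9.0, 14.6, 4.65 and 7.13 in the libraries labelled *FcγRIIB*-/-. In WT replicate 1 the members furthest above the other WT libraries were *Fosb* (2.51-fold), *Fos* (1.98-fold), *Nr4a1* (1.81-fold) and *Dusp1* (1.62-fold). In replicate 2 of the libraries labelled *FcγRIIB*-/- they were *Egr1* (6.00-fold), *Fos* (3.68-fold), *Egr2* (2.23-fold) and *Dusp1* (1.87-fold).

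The genes outside the group that followed it most closely were ranked among 12911 candidates by their correlation with the mean of the 10 after removal of the group means. *Ccn1*, which encodes a matrix protein and is itself a target of serum, was first (r = 0.99), with 135, 99.3, 70.5, 110 and 63.4 CPM in WT and 64.8, 190, 100 and 47.4 CPM in the libraries labelled *FcγRIIB*-/-. Its log2 fold change between groups was 0.07 (adjusted p = 0.894 in edgeR). *Hus1* (0.97), *Ppat* (0.94), *Myc* (0.93), *Hic2* (0.93), *Sik1* (0.93) and *Slc25a25* (0.93) followed. *Myc* and the kinase gene *Sik1* are immediate early genes in their own right. Without replicate 2 of the libraries labelled *FcγRIIB*-/- the correlations of these genes were between 0.85 and 0.96. The remaining libraries had also served to pick the genes, so these values are no independent check. With 12911 candidates and 9 libraries, some correlations this high can arise by chance.

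In the wider families the SD of log2 CPM within groups had a median of 0.20 over 11 other AP-1 and ATF genes. It was 0.21 over 5 other EGR and NR4A genes and EGR co-regulators. *Fosl1* (0.78), *Nr4a3* (0.65) and *Batf3* (0.51) nevertheless lay above the median of the 10 genes. They had only 11 to 65, 5 to 54 and 19 to 86 counts, so that counting error adds to their spread. Of the 11 AP-1 and ATF genes, 1 rose and 1 fell relative to WT, where the background over all genes was 14% higher and 19.3% lower. *Atf4*, the effector of the integrated stress response, rose by 0.20 on the log2 scale (adjusted p = 0.0439), a call lost in 6 of the 9 fits without 1 library (WT replicates 3, 4 and 5, and replicates 1, 3 and 4 of the libraries labelled *FcγRIIB*-/-). *Jdp2*, which dimerizes with JUN and represses AP-1, fell by 0.56 (adjusted p = 0.00513). The FOS relatives *Fosl1* (0.14, adjusted p = 0.831) and *Fosl2* (-0.30, adjusted p = 0.0854) and the JUN relative *Jund* (0.03, adjusted p = 0.798) did not pass. Of the 5 EGR and NR4A relatives and co-regulators tested, *Nr4a2* fell by 0.38 (adjusted p = 0.0462), a call lost in 7 of the 9 fits without 1 library (WT replicates 1, 2, 4 and 5, and replicates 1, 3 and 4 of the libraries labelled *FcγRIIB*-/-), while *Egr3* (0.07, adjusted p = 0.817) and *Nr4a3* (-0.90, adjusted p = 0.0881) did not pass.

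Among 36 further immediate early and primary response genes, 8 were higher and 2 lower, or 22.2% and 5.56%, against 14% and 19.3% of all genes. *Rhob*, a small GTPase, had 114 to 144 CPM in WT and 165 to 176 CPM in the libraries labelled *FcγRIIB*-/- and rose by 0.43 (adjusted p = 0.00219). *Gadd45g*, a growth arrest gene, rose by 0.90 (adjusted p = 0.00442), from 21.7 to 27.0 CPM in WT to 34.0 to 65.9 CPM. *Ier5l* (0.49, adjusted p = 0.00267) and the Notch target *Hes1* (0.36, adjusted p = 0.00703) rose too, and the groups did not overlap in any of these 4 genes. The 2 lower genes were *Plk3* and *Tnfaip3*, each at -0.70. The RNA-destabilizing *Zfp36* (0.14, adjusted p = 0.639), *Btg2* (-0.40, adjusted p = 0.127), *Ier3* (-0.04, adjusted p = 0.758), *Klf2* (0.23, adjusted p = 0.141), *Klf4* (-0.43, adjusted p = 0.108), *Klf6* (-0.20, adjusted p = 0.174) and *Myc* (0.07, adjusted p = 0.664) did not pass. *Zfp36* was at 68.1 CPM in replicate 2 of the libraries labelled *FcγRIIB*-/- and at 32.8 to 44.5 CPM in the other 8 libraries. Replicate 2 was the highest of its group in 10 of the 36 (27.8%), replicate 3 in 17 (47.2%, against 28.4% of all genes), and WT replicate 1 was the highest of WT in 17 (47.2%).

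**Figure D5:**
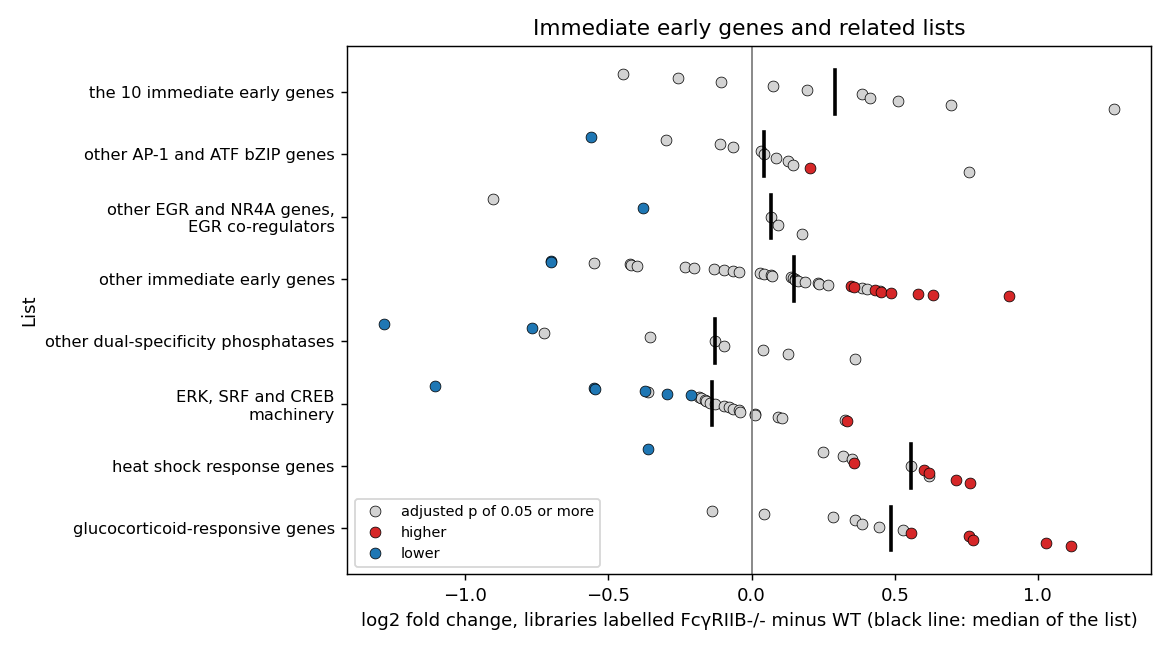
Log2 fold change between libraries labelled FcγRIIB-/- and WT (horizontal axis) of each gene of 8 lists (rows), with genes past an adjusted p of 0.05 in red (higher) or blue (lower) and a black line at the median of each list. None of the 10 immediate early genes is coloured, against 10 of the 36 other immediate early genes and 33.3% of all genes tested.

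Among the brakes and the upstream machinery, the share of lower genes was near the background of 19.3%. Of 9 other dual-specificity phosphatases, *Dusp4* and *Dusp5*, both nuclear ERK phosphatases, fell (22.2%) and none passed as higher in edgeR. *Dusp4* went from 4.97 to 6.58 CPM in WT to 1.88 to 2.71 CPM, a log2 fold change of -1.28 (adjusted p = 0.000543), and *Dusp5* fell by 0.77 (adjusted p = 0.0260). Of 24 genes of the ERK, SRF and CREB machinery, 6 were lower (25%) and 1 higher. *Elk4*, a partner of SRF, had 19.7 to 24.9 CPM in WT and 6.69 to 11.5 CPM in the libraries labelled *FcγRIIB*-/- and fell by 1.11 (adjusted p = 0.000822). The ERK-activated kinase genes *Rps6ka3* (-0.55, adjusted p = 0.00327) and *Rps6ka1* (-0.55, adjusted p = 0.00923) and the CREB coactivator *Ep300* (-0.37, adjusted p = 0.00563) fell as well. *Srf* (-0.18, adjusted p = 0.0892), *Creb1* (-0.08, adjusted p = 0.554) and *Mapk3* (-0.05, adjusted p = 0.676) did not pass.

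The heat shock genes placed another mouse on top than the 10 genes did. Of 11 heat shock genes, 5 were higher (45.5%, against 14% of all genes) and 1 lower. *Hspa8* (0.62, adjusted p = 0.00474), *Hspe1* (0.71, adjusted p = 0.0135) and the factor *Hsf1* (0.36, adjusted p = 0.00333) rose, and the cochaperone *Dnajb1* fell by 0.36 (adjusted p = 0.0298). Replicate 3, not replicate 2, was the highest of the libraries labelled *FcγRIIB*-/- in 10 of the 11, and replicate 4 was the lowest in 10. The 11 genes summed to 1494, 1457, 1971 and 1126 CPM in that group and to 908 to 1193 CPM in WT. Leaving out either replicate 2 or replicate 3 reduced the number that rose to 3.

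Of 12 genes that glucocorticoids induce, 5 were higher (41.7%, against 14% of all genes) and none lower by edgeR. Of the direct targets *Fkbp5* passed (0.76, adjusted p = 0.0447) while *Tsc22d3* did not (0.53, adjusted p = 0.111). The metallothioneins *Mt1* (1.03, adjusted p = 0.00117) and *Mt2* (1.12, adjusted p = 0.00711), which metals also induce, *Cdkn1a* (0.56, adjusted p = 0.000615) and *Pdk4* (0.78, adjusted p = 0.0132) rose. *Mt2* was at 142, 326, 269 and 145 CPM in the libraries labelled *FcγRIIB*-/-, with replicate 2 highest, and at 73.3 to 122 CPM in WT. Among 15 clock genes, 2 were higher (13.3%) and 3 lower (20%), near the background, with *Per2* (0.70, adjusted p = 0.00690) and *Cry1* (0.42, adjusted p = 0.0171) in one direction and *Npas2* (-0.91, adjusted p = 0.00122) and *Clock* (-0.43, adjusted p = 0.0132) in the other. Of 12 hypoxia genes, 3 were higher (25%, against 14% of all genes), namely *Hk2* (0.48, adjusted p = 0.0245), *Vegfa* (0.36, adjusted p = 0.0256) and *Ldha* (0.38, adjusted p = 0.0288). The number was 0 with total counts as library sizes and 1 without replicate 1 of the libraries labelled *FcγRIIB*-/-. It was 2 without replicate 2, 3 or 4 of that group or WT replicate 3 or 4.

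Markers of several cell types differed between groups in these libraries, and their values stand beside every value above. Of the markers tested, all 10 of neutrophil precursors, all 8 erythroid, 6 of 7 B cell, 1 of 6 T cell, 4 of 8 macrophage, 6 of 7 osteoclast, 7 of 9 keratinized epithelial, 4 of 9 osteoblast and osteocyte, 4 of 8 fibroblast, 1 of 7 smooth muscle and 1 of 8 endothelial markers were lower in the libraries labelled *FcγRIIB*-/-. Higher were 6 of 10 skeletal muscle, 5 of 8 odontoblast and ameloblast, 2 of 8 endothelial and 1 of 9 epithelial markers. Over all genes tested, 19.3% were lower and 14% higher. Lists with only 1 marker called in a direction did not exceed these shares. Of the osteoblast and osteocyte markers, *Mepe* and *Sost* were at 245 and 352 CPM in WT replicate 5 and at 7.38 to 22.7 CPM in the other WT libraries, and the number lower was 1 without replicate 1, 3 or 4 of the libraries labelled *FcγRIIB*-/-, 2 without its replicate 2 and 2 with DESeq2. Neutrophil precursor markers summed to 1132 to 3414 CPM in WT and 139 to 420 CPM in the libraries labelled *FcγRIIB*-/-, and muscle markers to 6869 to 15910 and 16740 to 29090 CPM. Of the 112 markers tested, *Ms4a1* had 0 counts in 1 library and *Flg* in 3. Within the libraries labelled *FcγRIIB*-/-, replicate 2 was the lowest of the 4 for all 7 B cell and all 6 T cell markers (22.2% of all genes). Some of these ranks rest on few counts, such as 8 and 6 for *Cd3e* in replicates 1 and 2. Replicate 2 was the highest for 5 of 7 Schwann cell markers (19.6% of all genes). Replicate 4 was the lowest for all 7 osteoclast markers (29.6% of all genes). It was the highest for 6 of 8 odontoblast and ameloblast and all 8 erythroid markers (31.3% of all genes). The part of these differences in the levels of the immediate early genes was not tested.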

How the data were processed

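Poly(A) RNA of 9 mandibles was sequenced with a directional kit. According to the submitters' processing notes, Trim Galore was used for trimming, HISAT 02.1.0 for alignment to mm10 and featureCounts for counting, and the authors deposited raw counts per gene. The annotation, the strand setting and the handling of reads with several matches are not given in the sources used here. Of the columns, 1 had no sample and was not used. Groups follow the labels, each library being 1 mouse, and 0 pairs of libraries were near-identical.

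Counts were analysed in R 4.3.3 with edgeR 4.0.16 (filterByExpr with a minimum count of 10, TMM, quasi-likelihood test of genotype without covariates, Benjamini-Hochberg adjustment over all 16329 genes tested at 0.05). The SE was derived from F and the log2 fold change, and 95% intervals use the moderated degrees of freedom. log2 CPM used a prior count of 2. Lengths are exon unions of GENCODE. DESeq2 1.42.0, voom in limma 3.58.1, other size factors and filters, a replicate block and leaving out libraries were alternatives. The scripts were tested on simulated data. Genes named are the 10 members, fixed relatives, up to 4 genes with the smallest p per other list, and the 8 genes most like the members (average log2 CPM 2 or higher), while genes named beyond this were chosen after their values were seen. Some genes covered by this rule were left out of the text. Members and lists were chosen with earlier results of these data known. TGACG was added to the motifs after the data had been seen. With 30 to 263 counts per library, *Fosb* was the least precise member.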

Additional observations from a re-analysis of the deposited data

Results flagged for a closer look

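Each of the 10 genes was examined for a library far from the others of its group, in 20 groups of values in all, and 2 went beyond Dixon's 95% critical value, which chance exceeds in about 1 of 20 groups. *Egr2* was at 10.2 CPM in replicate 2 of the libraries labelled *FcγRIIB*-/-, where the next library of the group had 4.97 CPM, a gap of 0.877 of the range of the group. *Ier2* was at 37.1 CPM in WT replicate 1, where the next WT library had 31.9 CPM, a gap of 0.727 of the range. *Egr1* in replicate 2 of the libraries labelled *FcγRIIB*-/- was just short of the critical value, with a gap of 0.817 of the range.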

How the results depend on the processing

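Over all genes, 2289 were higher and 3144 lower. With total counts as library sizes 1309 were higher, and with a log2 fold change of at least 1 as a further condition 181 were higher and 1069 lower. Leaving out 1 library gave 1781 to 2292 higher and 2521 to 2771 lower. Of the 10 genes, 0 were higher by edgeR, but 1 with RLE size factors, 1 with upper-quartile factors, 2 with DESeq2 and 1 with voom and sample weights, and 0 to 3 with 1 library left out (1, *Ier2*, without replicate 1 of the libraries labelled *FcγRIIB*-/-, and 3 without its replicate 4). The number lower was 0 in each alternative computed. The number whose groups did not overlap was 0 with the other size factors and with a prior count of 0.5, and was not recomputed with libraries left out, where *Ier2* no longer overlapped without WT replicate 1. *Fos* turned, in its log2 fold change, to -0.32 without replicate 2 of the libraries labelled *FcγRIIB*-/- and to -0.045 without that library and WT replicate 1 together, a setting chosen after seeing the data. *Egr2* turned to -0.31 and -0.39 in the same settings, to -0.0036 without WT replicate 1 and to -0.0076 without WT replicate 3. *Jun* turned to 0.0026 without WT replicate 1. With 1 library left out, the range was -0.32 to 0.70 for *Fos*, -0.31 to 0.24 for *Egr2* and -0.19 to 0.0026 for *Jun*. The causes were not tested. Over all alternatives the number of higher genes was 7 to 11 of the 36 other immediate early genes, 2 to 9 of the heat shock genes 3 to 7 of the glucocorticoid-responsive genes, 0 to 4 of the hypoxia genes, 1 to 7 of the odontoblast and ameloblast markers and 4 to 10 of the muscle markers, and the number of lower genes of the upstream machinery was 4 to 11. *Nr4a2* also lost its call with RLE or upper-quartile factors, either other filter, voom and the replicate block, and *Atf4* with total counts, no filter and the replicate block. Over the 10 genes the median of 0.29 was -0.02 without replicate 2 of the libraries labelled *FcγRIIB*-/- and 0.22 to 0.44 when any other library was left out.

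The replicate numbers come from the labels and belong to different mice. The deviations of same-numbered libraries correlated at 0.10, 0.03, -0.11 and -0.07. Differently numbered libraries were not compared, so these values cannot settle whether the numbers pair the samples. The main test treated the libraries as unpaired. With the replicate block, 0 of the 10 genes were higher or lower, *Fos* was at -0.022, and 1594 genes were higher and 2410 lower.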
